A study of Mus musculus with 143 samples.

Results

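The mitochondrial ribosomal protein genes were examined in mouse oocytes with knockouts of nucleases of the RNA exosome. Members were the protein-coding genes whose symbol starts with Mrpl (named for the large subunit) or Mrps (named for the small subunit) followed by a digit, without pseudogene names. Counts and medians by subunit follow these names alone, not the place of each protein. The rule found 78 genes among the 55740 gene identifiers found in the poly(A) or RiboMinus count files, 49 named Mrpl and 29 named Mrps. They were spread over 17 chromosomes with 11 on chromosome 11. In the study, single oocytes were sequenced after capture of polyadenylated RNA (poly(A), 71 libraries) or as total RNA depleted of ribosomal RNA and primed with random hexamers (RiboMinus, 48 libraries), with an ERCC spike-in mix in every library. Poly(A) libraries came from germinal vesicle (GV) oocytes, oocytes at 3 h (GV3h), both dissected from ovaries and cultured in M2 medium, and eggs arrested in metaphase of the second meiotic division (MII) taken from the oviducts of superovulated mice. Each of those stages had 8 control libraries, and 15, 16 and 16 libraries of a Dis3 conditional knockout (cKO). The RiboMinus libraries, 8 in each of 6 groups, came from GV oocytes of adult mice, either controls or Dis3 cKO, and from a stage labelled p20 (postnatal day 20). The p20 genotypes were control, Dis3 cKO, Exosc10 cKO and dcKO, read here as the double knockout of Dis3 and Exosc10. Bulk oocytes gave CUT&Tag peak lists labelled pols2s5, read here as RNA polymerase II (Pol II), with 3 lists each for adult GV control, adult GV Dis3 cKO and p20 control. The mutant mice were made with CRISPR/Cas9, and the labels name neither the Cre driver nor the adult age nor the number of animals behind the single oocytes, so p-values measure the spread between these libraries.

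The mitochondrial ribosome translates the few proteins encoded in mitochondrial DNA, all of them subunits of the respiratory chain or the ATP synthase. Its RNAs come from the mitochondrial genome, while every protein of it is encoded in the nucleus, made in the cytosol and imported. A mouse oocyte grows while arrested in prophase, stores maternal mRNA and mitochondria, and becomes nearly silent in transcription by the fully grown GV stage, and many stored messages are degraded during maturation to MII. DIS3 and EXOSC10 are ribonucleases of the RNA exosome, which degrades and trims nuclear and cytoplasmic RNA.

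Some mitochondrial ribosomal protein genes share a start region with another gene. Of 69 members with a start site in the RefSeq promoter table (build GRCm38.p6), 26 (37.7%) had another gene starting on the opposite strand within 1000 bases upstream, against 12.3% of 27025 genes. Partners included Sars2 at Mrps12, Twnk at Mrpl43, Fau at Mrpl49 and Ska3 at Mrpl57, and 25 of the 78 members overlapped another annotated gene. The promoters were searched on both strands for 5 sequences known from housekeeping and mitochondrial genes, over 250 bases before to 50 after each start. The nuclear respiratory factor NRF1 core GCGCATGC was in 8 of 75 member promoters (10.7%) against 2.71% of all 32851, the ETS core CCGGAAGT in 12 (16.0%) against 3.89%, and the YY1 core AAGATGGC in 12 (16.0%) against 2.75%. The cyclic AMP response element TGACGTCA was in 2 (2.67%) against 1.79%, and the GC box GGGCGG in 39 (52.0%) against 35.7%. A match describes the sequence and is not a shown binding site. Promoters of 4 members, chosen after their values were seen, follow from RefSeq in build GRCm38.p6, 5′ to 3′, with matches to the searched sequences in capitals. Mrpl9 is shown because it was raised in most knockouts and holds overlapping NRF1 cores, Mrpl12 because it fell strongly on maturation and holds none of the 5 sequences, and Mrps11 with Mrpl46 because a member of each subunit starts 42 bases from the other in opposite directions.
Mrpl9, chr3:94443086-94443385, plus strand: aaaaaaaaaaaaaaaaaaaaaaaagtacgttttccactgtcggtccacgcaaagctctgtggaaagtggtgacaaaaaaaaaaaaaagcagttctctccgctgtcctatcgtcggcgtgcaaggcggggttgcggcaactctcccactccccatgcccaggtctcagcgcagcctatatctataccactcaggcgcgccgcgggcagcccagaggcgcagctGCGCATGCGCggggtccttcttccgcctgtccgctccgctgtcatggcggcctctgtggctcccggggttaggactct
Mrpl12, chr11:120484387-120484686, plus strand: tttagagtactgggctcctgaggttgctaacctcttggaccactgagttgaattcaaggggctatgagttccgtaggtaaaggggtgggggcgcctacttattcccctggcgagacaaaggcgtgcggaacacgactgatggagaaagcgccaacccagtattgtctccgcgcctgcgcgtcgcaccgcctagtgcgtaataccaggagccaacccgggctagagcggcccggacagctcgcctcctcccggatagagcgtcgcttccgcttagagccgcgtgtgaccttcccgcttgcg
Mrps11, chr7:78782881-78783180, plus strand: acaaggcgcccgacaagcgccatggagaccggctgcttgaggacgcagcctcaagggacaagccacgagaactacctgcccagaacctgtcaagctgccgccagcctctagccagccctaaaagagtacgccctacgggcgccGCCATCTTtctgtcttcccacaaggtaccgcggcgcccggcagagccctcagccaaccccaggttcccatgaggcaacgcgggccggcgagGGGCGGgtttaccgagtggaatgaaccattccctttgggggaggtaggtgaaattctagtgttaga
Mrpl46, chr7:78783040-78783339, minus strand: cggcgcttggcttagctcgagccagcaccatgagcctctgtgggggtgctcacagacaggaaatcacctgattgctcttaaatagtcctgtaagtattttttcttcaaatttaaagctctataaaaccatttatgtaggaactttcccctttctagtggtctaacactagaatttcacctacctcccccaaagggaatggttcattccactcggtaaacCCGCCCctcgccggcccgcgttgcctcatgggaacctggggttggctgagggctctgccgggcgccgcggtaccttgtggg
In the shared stretch, the GC box of Mrps11 and that of Mrpl46 are the same letters read on opposite strands, and the YY1 core upstream of Mrps11 lies outside the printed window of Mrpl46.

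Gene counts ran from 4843964 to 15412200 per poly(A) library and from 8492102 to 35429028 per RiboMinus library, and every library held counts for at least 74 members. Dis3 was at 9.60 to 17.9 CPM in poly(A) GV controls and 0.683 to 5.85 in the libraries labelled Dis3 cKO, and Exosc10 at 103 to 137 in p20 controls, 0.352 to 10.6 in Exosc10 cKO and 3.14 to 14.8 in dcKO. CPM here are read counts relative to library size after scaling by trimmed mean of M values (TMM), and values of a gene are compared between samples only. All 10 oocyte markers reached 1 CPM in every group, while 5 blood markers summed to at most 1.22 CPM in any library. Granulosa markers summed to lowest, median and highest values of 97.2, 127 and 202 CPM in GV controls, 76.8, 97.1 and 207 in GV Dis3 cKO, 86.3, 95.2 and 156 CPM in MII controls and 51.8, 65.7 and 84.5 in MII Dis3 cKO, and their part in the results was not tested. Libraries 7, 11 and 15 of MII Dis3 cKO stood apart, with 0.267%, 0.218% and 0.201% of their gene counts in members, and library 15 also had only 14.4 gene counts per ERCC count. Among p20 libraries, Dis3 cKO 1_4 (0.177%) and Exosc10 cKO 2_4 (0.231%) stood apart in the same measure.

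Members together took a small share of each library, and in poly(A) data that share was well below its GV value in MII eggs. The MII eggs also differed in superovulation and way of collection, and the part of these was not tested. The lowest, median and highest shares were 0.433, 0.488 and 0.563% of gene counts in GV controls, 0.395, 0.438 and 0.462% in GV3h controls and 0.140, 0.145 and 0.160% in MII controls. In Dis3 cKO libraries they were 0.410, 0.520 and 0.572%, 0.406, 0.471 and 0.538% and 0.166, 0.179 and 0.267% at the same stages. No MII library of either genotype reached the lowest GV or GV3h library, and every MII Dis3 cKO library lay above every MII control. Member counts per ERCC count overlapped in MII, at 0.0599 to 0.0834 in controls and 0.0289 (library 15) to 0.216 in Dis3 cKO. In RiboMinus data the share was 0.158, 0.166 and 0.176% in adult controls and 0.179, 0.198 and 0.215% in adult Dis3 cKO, without overlap. Member counts per ERCC count went the other way with overlap, at 0.574 to 0.787 in adult controls and 0.327 to 0.665 in adult Dis3 cKO. At p20 it was 0.150, 0.152 and 0.156% in controls, 0.146, 0.150 and 0.177% in Dis3 cKO, 0.144, 0.160 and 0.231% in Exosc10 cKO and 0.156, 0.181 and 0.198% in dcKO. Every dcKO library lay above every control, narrowly, with the lowest dcKO share at 0.15596% and the highest control share at 0.155846%, while both single knockouts overlapped the controls. Per ERCC count the dcKO libraries, at 1.39 to 2.42, did not separate from the p20 controls, at 1.59 to 2.39. The dcKO shares divided by title tag, from 0.191% to 0.198% in the 4 libraries of tag 1 and from 0.156% to 0.172% in the 4 of tag 2, as did adult control shares, from 0.158% to 0.162% for AM1758 and from 0.169% to 0.176% for AM1759. What a tag marks is not described in the labels, so each separation rests on 2 tags a group.

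**Figure D1:**
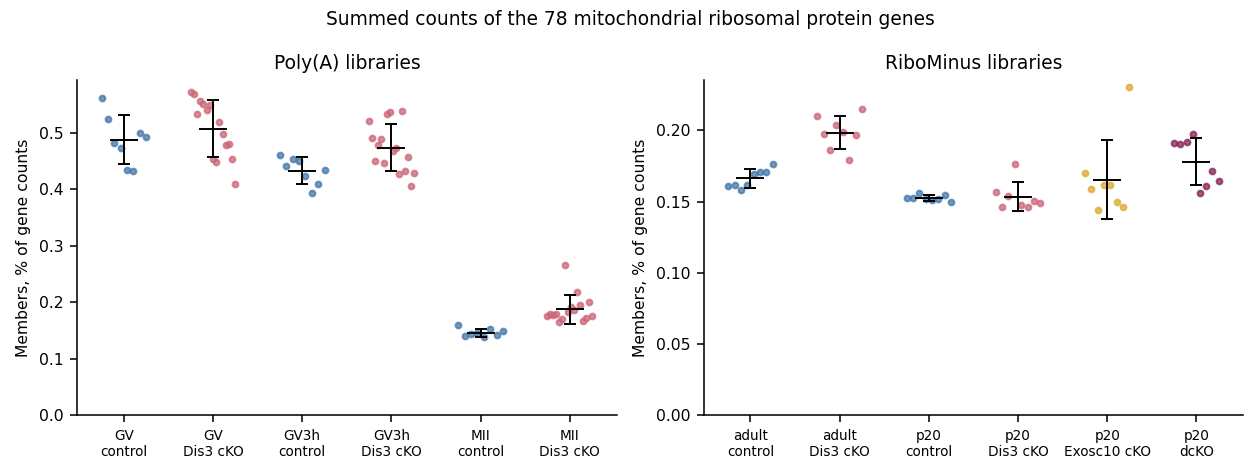
Share of gene counts in the 78 mitochondrial ribosomal protein genes (y axis, percent) for each library (points), by group (x axis), with bars for mean ± SD. Poly(A) GV controls average 0.488% and MII controls 0.146%, and the MII Dis3 cKO libraries lie above the MII controls at 0.166% to 0.267%. Per ERCC count the MII groups overlap, at 0.0599 to 0.0834 in controls and 0.0289 to 0.216 in Dis3 cKO.

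Maturation in control oocytes asked how these messages fare when transcription is low, and most of them fell. In poly(A) data, 64 of 78 members were lower in MII eggs than in GV oocytes and 2 were higher (adjusted p under 0.05). Each adjusted p, here and below, is from the quasi-likelihood test of edgeR unless another tool is named. The adjustment was by Benjamini-Hochberg over all genes tested in the fit concerned, here 17389. Of all genes, 35.8% were lower and 22.7% higher. The members' median log2 difference was -2.14, against -0.27 for all genes. Among members, 19 fell more than 10-fold, 43 more than 4-fold and 59 more than 2-fold. No share of all genes past these cuts is given here, so these counts describe the members only. In 60 members every MII control library lay below every GV control library, as in 17.6% of all genes, and in 1 member every library lay above, as in 10.8%. By name, the median was -2.21 over 49 Mrpl and -2.07 over 29 Mrps genes. Among the 53 members that overlap no other gene, 46 were lower and 1 higher. Capture used the poly(A) tail, so that a shorter tail and fewer RNA molecules cannot be told apart here. Granulosa markers also differed, with 1 higher and 6 lower of 10 tested (median -1.80) in controls and 1 higher and 7 lower of 10 tested (median -2.28) in Dis3 cKO, and their part in the members' fall was not tested. Scaled to ERCC counts, the median of all genes moved to -2.12, and all 78 members were called lower, as were 87.5% of all genes.

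The members that fell furthest gave few reads in MII poly(A) libraries. Mrpl52 (ENSMUSG00000010406, a large-subunit protein found in mitochondria but not bacteria) had lowest, median and highest values of 11.2, 20.1 and 28.4 CPM in GV controls and 0, 0.272 and 1.07 CPM in MII controls, a log2 difference of -5.88 (SE 0.35, adjusted p 3.91e-24). Mrpl12 (ENSMUSG00000039640, chr11:120484637-120488754), a protein of the ribosome stalk that also binds the mitochondrial RNA polymerase, went from 102, 131 and 163 CPM to 1.07, 2.94 and 6.36 CPM, a difference of -5.21 (SE 0.22, adjusted p 1.06e-31). The highest MII control therefore lay far below the lowest GV control for both genes. Mrpl33, a small homologue of a bacterial large-subunit protein, went from 41.3, 43.9 and 53.1 CPM to 0.205, 1.03 and 2.79 CPM (-5.19, SE 0.44, adjusted p 4.99e-17). Mrps11, which lies on the platform of the small subunit, went from 29.1, 35.6 and 43.6 CPM to 0, 1.29 and 1.85 CPM (-4.91, SE 0.29, adjusted p 2.13e-24). Neither gene had overlapping libraries. Mrpl46 (ENSMUSG00000030612), which shares the start region of Mrps11 printed above and was named for that reason, fell by 2.68 on the log2 scale.

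Of the 8 members fixed for their roles, 6 fell, and Mrpl3 and Mrpl44 are described after them. Mrpl58, a peptidyl-tRNA hydrolase within the large subunit that can release stalled chains, had lowest, median and highest values of 59.3, 79.3 and 102 CPM in GV and 1.18, 2.56 and 7.82 CPM in MII controls, a difference of -4.60 (SE 0.28, adjusted p 5.27e-24). Mrps12, the protein next to the decoding centre, went from 18.6, 19.95 and 28.5 CPM to 0.214, 1.16 and 4.96 CPM (-3.76, SE 0.40, adjusted p 4.04e-13). The groups did not overlap for either gene. The paralogues Mrps18a, Mrps18b and Mrps18c differed by -3.72, -2.79 and -4.76, with adjusted p of 4.47e-12, 5.45e-13 and 5.2e-23. Mrps18b kept the most of its GV level of the 3, at 0.944, 2.84 and 6.25 CPM in MII against 17.9, 19.2 and 27.7 CPM in GV controls.

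A small set went the other way under TMM scaling. Mrpl3 (ENSMUSG00000032563, chr9:105053268-105077466), a large-subunit protein whose bacterial homologue reaches towards the peptidyl transferase centre, had lowest, median and highest values of 42.8, 48.9 and 67.1 CPM in GV and 95.5, 125 and 151 CPM in MII controls, and every MII library lay above every GV library. Its difference was 1.25 (SE 0.14, adjusted p 1.56e-12), and scaling to ERCC counts turned it to -0.59 (adjusted p 0.00608). Mrpl44, a large-subunit protein with a ribonuclease III-like fold, went from 12.5, 18.9 and 21.2 CPM to 18.9, 25.6 and 34.7 CPM with overlap, a difference of 0.56 (SE 0.16, adjusted p 0.00194) that became -1.32 under ERCC scaling. The 12 members not called were Mrpl9, Mrpl10, Mrpl18, Mrpl19, Mrpl21, Mrpl45, Mrpl47, Mrps2, Mrps9, Mrps14, Mrps23 and Mrps26. The members thus spanned from -5.88 for Mrpl52 to 1.25 for Mrpl3 in the same libraries.

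**Figure D2:**
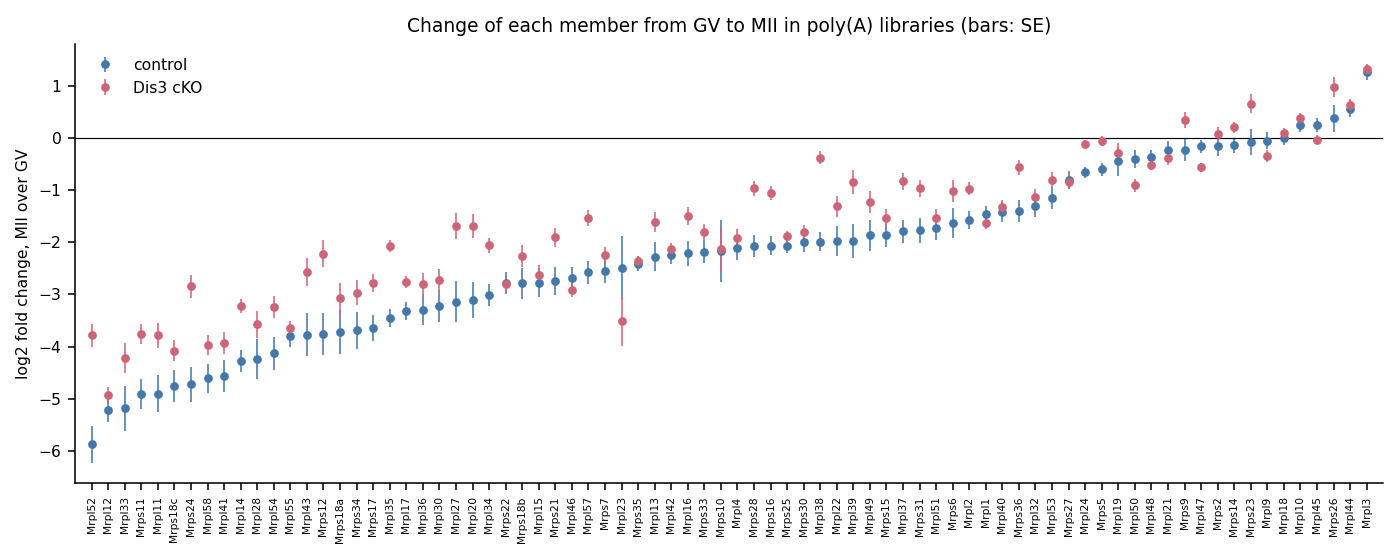
Log2 difference of MII eggs from GV oocytes (y axis) for the 78 members (x axis, ordered by the control value), under TMM scaling. Each member has 1 point for control and 1 for Dis3 cKO, with bars for SE. Most points lie below 0 in both genotypes, with 5 of 78 members above 0 in control and 9 in Dis3 cKO. Mrpl3 (1.25 and 1.32) and Mrpl44 are above 0 in both. The Dis3 cKO value is the higher in 67 of 78 members. Mrpl3 in controls and Mrpl44 in both genotypes turn negative under ERCC scaling.

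Other genes of mitochondrial translation had mixed directions under TMM scaling, and RNA from mitochondrial DNA had a higher share of the libraries in MII. Cytosolic ribosomal proteins fell furthest, with 1 higher and 79 lower of 83 tested and a median of -3.30. Of 5 subunits outside the name rule, 4 were lower and Ptcd3, a pentatricopeptide repeat protein of the small subunit, was higher at 0.80, with a list median of -3.12. Assembly and rRNA modification factors gave 3 higher and 14 lower of 27 tested (median -0.67), translation factors 4 higher and 11 lower of 16 tested (-0.86) and mitochondrial aminoacyl-tRNA synthetases 2 higher and 10 lower of 17 tested (-1.32). All 7 mitochondrially encoded proteins that could be tested were higher, with a median of 2.23, and both mitochondrial rRNAs were higher, mt-Rnr1 by 1.06 and mt-Rnr2 by 1.82. Under ERCC scaling these directions were not all kept: mt-Rnr1 was lower at -0.83 (adjusted p 0.000173), mt-Rnr2 was at -0.06 (adjusted p 0.795), and the mitochondrially encoded proteins had 3 higher and 1 lower of 7 with a median of 0.35. Ptcd3 also turned, to -1.05. Under that scaling 0.334% of all genes were higher in MII, and none of them was a nuclear gene of these lists.

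Few members were called between the start of culture and 3 h in controls. Between GV3h and GV controls, 2 members were higher (Mrpl9 and Mrpl10), 1 was lower (Mrpl24) and the median difference was -0.26, beside 1.14% of all genes higher, 1.56% lower and an all-gene median of -0.05. Granulosa markers gave 0 higher and 3 lower of 10 tested (median -0.80), and their part in these values was not tested. Mrpl9 went from 82.7, 97.8 and 138 CPM to 121, 151 and 170.3 CPM, a log2 difference of 0.57 (SE 0.15, adjusted p 0.0281) with overlapping libraries. In Mrpl24 and Mrps16 every GV3h library lay below every GV library, as in 0.707% of all genes. A fit on those groups alone called 5 higher and 19 lower (7.66% and 7.45% of all genes), and scaled to ERCC counts none was, beside 0.38% of all genes higher and 0.299% lower, with an all-gene median of 0.17. None of the 8 members fixed for their roles was called, Mrpl12 among them at -0.16 (adjusted p 0.725).

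In Dis3 cKO oocytes, poly(A) levels of largely the same members fell on maturation. In Dis3 cKO, 65 of 78 members were lower in MII than in GV and 6 were higher, with a median of -1.66, against 38.5% lower, 24.8% higher and a median of -0.26 over all genes. Of the 64 members lower in controls and 65 lower in Dis3 cKO, 62 were shared, and both members higher in controls were among the 6. The share of all genes called alike in both genotypes is not given here, so this overlap describes the members only. The 6 were Mrpl3, Mrps26, Mrps23, Mrpl44, Mrpl10 and Mrps9, from 1.32 for Mrpl3 to 0.34 for Mrps9, and ERCC scaling moved Mrpl3 to 0.07 (adjusted p 0.635) and Mrpl44 to -0.59. More than 10-fold falls were seen in 11 members, more than 4-fold falls in 32 and more than 2-fold falls in 51, again given without the share of all genes past these cuts. The comparisons share no library, and over the 78 members Pearson's r of the differences was 0.941 and Spearman's rho 0.946. Both comparisons share the gene's own composition and assay, and no correlation over all genes is given here. The Dis3 cKO difference was the higher of the pair in 67 of 78 members, and in 54.7% of all genes. Without libraries 7, 11 and 15 of MII Dis3 cKO the median was -1.90. Scaled to ERCC counts, 76 were lower and none higher, beside 82.3% and 1.31% of all genes, with an all-gene median of -1.50.

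The test of the difference between those changes named 22 members, all with a higher Dis3 effect in MII than in GV. Over all genes 9.28% were called in that direction and 3.88% in the other, and the members' median was 0.55 against 0.07. Mrpl52 had the largest difference at 2.09 (SE 0.39, adjusted p 9.51e-05), and Mrpl38 at 1.61 (SE 0.23, adjusted p 2.65e-07) and Mrps12 at 1.54 (SE 0.45, adjusted p 0.0142) were also called. None was lower, where edgeR gave 34 members and 27.1% of all genes at an unadjusted p under 0.05, and DESeq2 called 22 higher and 1 lower (9.45% and 5.82% of all genes). Without MII Dis3 cKO libraries 7, 11 and 15, chosen for removal after seeing the data, 18 members were called, beside 9.01% of genes higher and 4.58% lower, the members' median was 0.28 and Mrps12 was at 0.70 (adjusted p 0.149). ERCC scaling called 61 higher and 0 lower (29.4% and 0.696% of all genes), with an all-gene median of 0.68.

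In MII eggs themselves, loss of Dis3 came with higher levels of many members. There were 32 higher and 3 lower of 78, with a median of 0.43, beside 27.3% higher, 14.8% lower and a median of 0.16 over all genes. Higher members were 18 of 49 named Mrpl and 14 of 29 named Mrps. Among the 53 members that overlap no other gene, 22 were higher and 2 lower. Mrpl38 (ENSMUSG00000020775, chr11:116131817-116138868), a mitochondria-specific large-subunit protein related to phosphatidylethanolamine-binding proteins, had lowest, median and highest values of 3.42, 6.47 and 12.05 CPM in controls and 13.4, 24.3 and 45.8 CPM in Dis3 cKO, without overlap (1.77, SE 0.17, adjusted p 1.28e-13). Mrpl57 went from 6.51, 7.97 and 9.32 CPM to 13.1, 17.8 and 63.6 CPM, also without overlap (1.65, SE 0.19, adjusted p 6.71e-11); 2.02% of all genes separated in that direction. Mrpl57 overlaps Ska3 by annotation, and the counting's strand setting is not given in the sources used here. Mrpl35 went from 6.37, 10.4 and 16.2 CPM to 13.1, 21.9 and 31.2 CPM (1.04, SE 0.15, adjusted p 2.92e-08), and Mrps28 from 6.59, 9.86 and 19 CPM to 3.99, 22.9 and 33.6 CPM (1.00, SE 0.19, adjusted p 1.34e-05), both with overlap; Mrps28 shares its span with predicted genes. Mrpl52 and Mrpl27, both averaging under 10 CPM, had the largest differences of 2.11 and 1.98, and were added after their values were seen. Mrps12 rose by 1.60 from 0.214, 1.16 and 4.96 CPM to 0.896, 2.84 and 19.3 CPM, and without libraries 7, 11 and 15 the rise was 0.76 and the members' median 0.26, with 26 higher and 5 lower (25.6% and 15.6% of all genes).

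The 3 members lower in MII Dis3 cKO all belong to the large subunit. Mrpl45, a large-subunit protein near the exit tunnel and the inner membrane, had 38.1, 52.7 and 62.1 CPM in controls and 22.2, 36.8 and 50.8 CPM in Dis3 cKO (-0.48, SE 0.11, adjusted p 0.000266), with overlap. Mrpl21 differed by -0.47 (SE 0.15, adjusted p 0.00913) and Mrpl47 by -0.35 (SE 0.11, adjusted p 0.00742), and all 3 were among the 12 members not called between control MII and GV. Under ERCC scaling Mrpl45 and Mrpl21 were not called, Mrpl47 turned to 0.01, the members counted 55 higher and 0 lower (37.6% and 4.31% of all genes), and the all-gene median was 0.52. Fitted on the MII groups alone, 21 higher and 1 lower (17.5% and 13.2% of all genes) were called. Cytosolic ribosomal proteins gave 40 higher and 3 lower of 83 tested with a median of 0.63, and granulosa markers 1 higher and 6 lower of 10 tested. Among subunits outside the name rule Gadd45gip1 and Chchd1 were higher at 1.31 and 1.02, and Ptcd3 lower at -0.39, a call not made under ERCC scaling (-0.01, adjusted p 0.973).

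**Figure D3:**
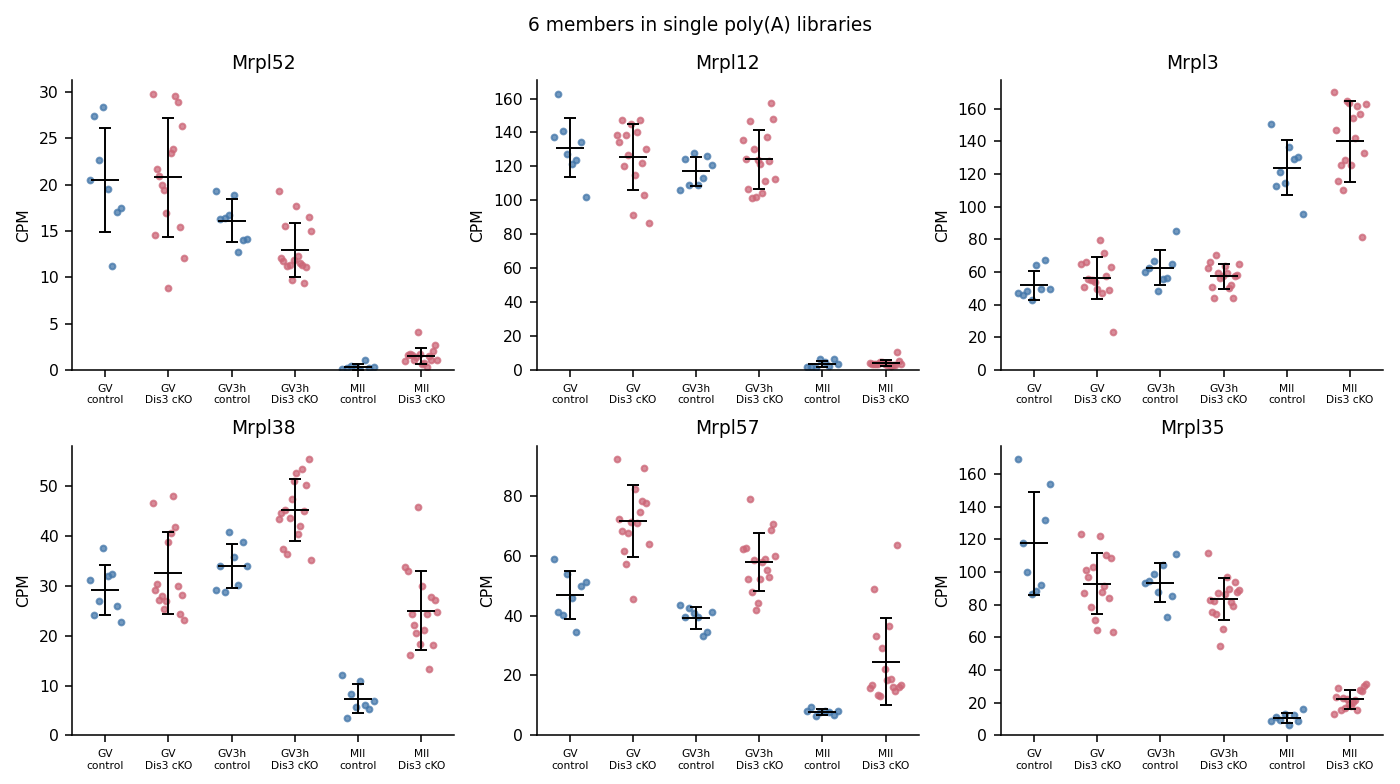
TMM-scaled CPM (y axis) of Mrpl52, Mrpl12, Mrpl3, Mrpl38, Mrpl57 and Mrpl35 in each poly(A) library (points), by stage and genotype (x axis), with bars for mean ± SD. Mrpl52 and Mrpl12 drop to near 0 in MII, Mrpl3 is higher in MII on this scale (under ERCC scaling control Mrpl3 is lower), and Mrpl38 and Mrpl57 separate control from Dis3 cKO eggs.

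Loss of Dis3 changed few members in poly(A) RNA of GV oocytes, with 4 higher and 1 lower of 78, beside the 13.6% higher and 8.33% lower among all genes, and the median was -0.07 against 0.04. The 4 were Mrpl9, Mrpl36, Mrpl41 and Mrpl57, all of the large subunit, and the lower member was Mrpl2. Mrpl9 (ENSMUSG00000028140, chr3:94443154-94448708), a homologue of a bacterial large-subunit protein, had lowest, median and highest values of 82.7, 97.8 and 138 CPM in controls and 87.9, 196 and 266 CPM in Dis3 cKO, a difference of 0.97 (SE 0.14, adjusted p 1.12e-07). Mrpl2, a conserved protein near the peptidyl transferase centre, went from 48.05, 61.8 and 75 CPM to 19.9, 41.1 and 58.8 CPM (-0.52, SE 0.14, adjusted p 0.00345). The gene overlaps Klc4 by annotation, and no member separated all libraries of the GV groups, beside 2.04% of all genes above and 1.12% below. Mrpl36 at 0.67 and Mrpl41 at 0.61 were no longer called without GV control library 1 (adjusted p 0.0561 and 0.0722). Scaled to ERCC counts, 1 higher and 11 lower (7.27% and 13.3% of all genes) were called with an all-gene median of -0.23, and fitted on the GV groups alone 5 higher and 7 lower (14.8% and 12.4% of all genes).

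After 3 h of culture, 8 members were higher and 5 lower in Dis3 cKO, with a median of -0.09, beside 22.9% higher, 15.7% lower and a median of 0.07 over all genes. This comparison shares no library with the GV one. Of the 4 members higher in GV, 3 (Mrpl9, Mrpl36 and Mrpl57) were among the 8, and Mrpl2 was lower in both. The share of all genes called alike at both stages is not given here, so this overlap describes the members only. Mrpl36, a very small zinc-binding protein of the large subunit, had 13.3, 16.2 and 22.7 CPM in controls and 16.02, 26.7 and 41.9 CPM in Dis3 cKO (0.74, SE 0.23, adjusted p 0.00655). Mrps26, a small-subunit protein specific to mitochondria, rose by 0.71. Mrpl39, a relative of threonyl-tRNA synthetase in the large subunit, had 44.3, 50.6 and 63.9 CPM and 13.2, 29.5 and 39.99 CPM, with every Dis3 cKO library below every control, as in 2 of 78 members (2.56%) and 3.38% of all genes (-0.83, SE 0.27, adjusted p 0.01). In Mrpl17 and Mrps7 (2.56% of members) every Dis3 cKO library lay above every control, as in 5.9% of all genes. Mrps9 and Mrpl18 differed by -0.55 and -0.36 on the log2 scale. ERCC scaling called 2 higher and 3 lower (17.5% and 10.6% of all genes), and a fit on the GV3h groups alone 16 higher and 18 lower (29.7% and 24.9% of all genes).

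In total RNA of adult GV oocytes, loss of Dis3 came with higher levels of a limited set of members under TMM scaling, and of none under ERCC scaling. In RiboMinus libraries 16 of 76 tested members were higher and 3 lower in adult Dis3 cKO, with a median of 0.17, against 15.7% higher, 12.4% lower and a median of 0.03 over 15334 genes. Mrpl23 and Mrpl53 had too few counts to be tested. Among called members at 10 CPM or more, Mrpl9 had the largest rise, with lowest, median and highest values of 47.8, 56.7 and 76.01 CPM in controls and 75.04, 112 and 148 CPM in Dis3 cKO (0.88, SE 0.12, adjusted p 4.51e-05) with a slight overlap. Mrpl27 and Mrpl49, named after their values were seen, had larger differences of 1.25 and 1.04 but averaged under the 10 CPM of the rule for named members. Mrpl17, a conserved large-subunit protein, went from 26.8, 29.8 and 31.5 CPM to 33.3, 44.7 and 70.9 CPM without overlap (0.74, SE 0.15, adjusted p 0.000992). Every Dis3 cKO library was also above every control for Mrpl49 and Mrps7, each of which overlaps another protein-coding gene; 3.62% of all genes separated in that direction. Mrpl36 (0.74, SE 0.17, adjusted p 0.00361) and Mrpl57 (0.59, SE 0.15, adjusted p 0.00751) were higher with overlap. Mrps9, Mrpl37 and Mrpl4 were lower, at -0.50, -0.49 and -0.48.

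Scaled to ERCC counts, the count was 0 higher and 28 lower (4.56% and 40.1% of all genes), with a members' median of -0.43 and an all-gene median of -0.52. RiboMinus titles carry 2 tags in each group that the labels do not describe, and with counts summed per tag edgeR called no member and no other gene either, with Mrpl9 at 0.84 (adjusted p 0.119). Against poly(A) GV oocytes, which share no library with these, all 4 members higher in poly(A) data were among the 16. No lower call was shared between the assays. The share of all genes called alike in both assays is not given here, so this overlap describes the members only. Over 76 members the Dis3 differences of the assays had Pearson's r 0.635 and Spearman's rho 0.582, with 45 of the same sign. The points share genes and genotype labels but no libraries, and no correlation over all genes is given here. Both mitochondrial rRNAs and all 7 tested mitochondrially encoded proteins were higher in both assays, with medians of 0.72 and 1.27 in RiboMinus and 1.15 and 1.30 in poly(A) GV data. Under ERCC scaling all of them stayed called in poly(A) GV data, while in RiboMinus 5 of the 7 proteins and neither rRNA were called, with medians of 0.62 and 0.06. Cytosolic ribosomal proteins gave 6 higher and 4 lower of 79 tested in RiboMinus, and 1 higher and 38 lower under ERCC scaling.

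In p20 oocytes the single knockouts gave few calls. The 3 knockout groups share the same 8 controls, so their values are given side by side. In Dis3 cKO 2 members were higher and 3 lower of 76, with a median of 0.03, beside 3.61% higher and 3.76% lower over 15882 genes. In Exosc10 cKO 1 member was higher and 1 lower, with a median of 0.10, beside 3.95% higher and 3.5% lower. Mrpl48, a mitochondria-specific large-subunit protein, had lowest, median and highest values of 31.2, 37.7 and 44.6 CPM in controls, 14.9, 18.5 and 26.7 CPM in Dis3 cKO, 25.5, 38.1 and 55.9 CPM in Exosc10 cKO and 18.9, 22.6 and 27.9 CPM in dcKO. Both groups with low Dis3 RNA lay wholly below the controls, and Exosc10 cKO overlapped them. Below all controls lay 1 member (1.32%) and 1.53% of all genes in Dis3 cKO, and 3 members (3.95%) and 9.74% in dcKO. Its differences were -0.91 (SE 0.14, adjusted p 1.29e-05) in Dis3 cKO, 0.02 in Exosc10 cKO (adjusted p 0.962) and, for dcKO, -0.68 (SE 0.14, adjusted p 8.62e-05). The gene overlaps Rab6a and has a named pseudogene, so the origin of its reads is uncertain.

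Mrps9, a conserved small-subunit protein, was at 9.58, 14.7 and 16.5 CPM in controls, 6.26, 8.22 and 11.2 CPM in Dis3 cKO, 5.42, 8.14 and 12.8 CPM in Exosc10 cKO and 10.4, 12.6 and 19.2 CPM in dcKO. It was lower in each single knockout, with differences of -0.76 (SE 0.17, adjusted p 0.00293) and -0.78 (SE 0.17, adjusted p 0.00241), and was not called in dcKO at -0.09 (adjusted p 0.666). Mrpl9 was higher in Dis3 cKO by 0.48 (SE 0.14, adjusted p 0.0261), and Mrpl35 lower at -0.41 (SE 0.12, adjusted p 0.0282), a call lost without Dis3 cKO library 1_4 (adjusted p 0.0599). Mrps14, a conserved protein of the small subunit's head, rose in Exosc10 cKO by 0.47 (SE 0.14, adjusted p 0.033), a call not made without the filter on low counts (adjusted p 0.0698). With counts summed per title tag, Mrpl48 in Dis3 cKO was the only member called in either single knockout, where 0.631% and 0.736% of all genes were higher and lower in Dis3 cKO and 0.536% and 0.296% in Exosc10 cKO. ERCC scaling called 0 higher and 5 lower (0.781% and 5.31% of all genes) in Dis3 cKO, with an all-gene median of -0.31, and 0 higher and 1 lower (1.35% and 0.944% of all genes) in Exosc10 cKO.

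The dcKO group, in which Dis3 and Exosc10 RNA were both low, had members called in both directions. Of 76 tested, 20 were higher and 14 lower, with a median of 0.02, beside 26.6% higher, 27.1% lower and a median of -0.01 over all genes. Of the 52 tested members that overlap no other gene, 11 were higher and 10 lower. Mrpl36 had lowest, median and highest values of 4.76, 8.18 and 10.5 CPM in controls and 13.03, 18.8 and 32.05 CPM in dcKO, without overlap (1.42, SE 0.20, adjusted p 3.05e-07). Mrpl9 had 37.6, 51.6 and 65.8 CPM and 84.2, 108 and 125 CPM, also without overlap (1.06, SE 0.14, adjusted p 1.25e-07). Mrpl43, which overlaps Twnk, rose by 1.31 (SE 0.28, adjusted p 0.00022), and Mrpl49, which overlaps Syvn1, by 1.06 (SE 0.20, adjusted p 4.02e-05). Every dcKO library lay above every control in 7 of 76 members (9.21%) against 9.81% of all genes, Mrpl15, Mrpl17, Mrpl19, Mrpl36, Mrpl38, Mrpl9 and Mrps34. Mrps34, a small-subunit protein specific to mitochondria and named after its values were seen, had the largest difference of all members at 2.22 (SE 0.49, adjusted p 0.000244), from 0.290, 0.973 and 2.74 CPM to 3.35, 6.26 and 7.73 CPM.

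Among lower members, Mrpl40 had 29.8, 34.3 and 37.5 CPM in controls, 29.5, 35.6 and 41.4 CPM in Dis3 cKO, 30.8, 35.1 and 53.5 CPM in Exosc10 cKO and 19.2, 21.9 and 23.8 CPM in dcKO, so that the whole dcKO group lay below the other groups, as one of the 3 members below all controls (-0.67 against control, SE 0.10, adjusted p 9.09e-07). Members below all controls in dcKO made up 3.95% of those tested, against 9.74% of all genes. Mrpl40 encodes a large-subunit protein and starts opposite Hira. Mrpl39 was lower at -0.93 (SE 0.21, adjusted p 0.000281) and Mrpl35 at -0.74 (SE 0.12, adjusted p 4.39e-06). Of members fixed for their roles, Mrpl44 was higher at 0.66 (adjusted p 0.00221) and Mrpl58 lower at -0.43 (adjusted p 0.0123), while Mrpl12 was at 0.01 (adjusted p 0.952). With counts summed per title tag 15 higher and 7 lower (16.1% and 15.7% of all genes) were called, and with ERCC scaling 15 higher and 13 lower (17.8% and 20.4% of all genes).

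Set against each single knockout, dcKO again moved members both ways. Against Dis3 cKO, 20 were higher and 11 lower (median 0.04), beside 26% higher and 25.5% lower over all genes; ERCC scaling gave 25 higher and 2 lower (27% and 9.92% of all genes) with an all-gene median of 0.26. Against Exosc10 cKO, 19 were higher and 14 lower (median -0.06), beside 24.2% and 25%; ERCC scaling gave 12 higher and 7 lower (14.6% and 17% of all genes). Summed per title tag the counts were 9 higher and 5 lower (14.3% and 14.1% of all genes) against Dis3 cKO and 10 higher and 7 lower (13.1% and 13.4% of all genes) against Exosc10 cKO. Mrps18b was higher than in Dis3 cKO by 0.57 (SE 0.15, adjusted p 0.00142), where it was 0.15 against control. Mrpl3 was higher than in Exosc10 cKO by 0.48 (SE 0.11, adjusted p 0.000561). Mrpl44 was higher than in Dis3 cKO by 0.49 (SE 0.18, adjusted p 0.0201) and than in Exosc10 cKO by 0.48 (SE 0.18, adjusted p 0.0239). No other call was made for the members fixed for their roles. In dcKO against control, where 26.6% of all genes were higher and 27.1% lower, assembly and rRNA modification factors were 17 higher and 3 lower of 27 tested (median 0.52). Mitochondrial aminoacyl-tRNA synthetases were 10 higher and 1 lower of 17 tested (median 0.91). Both lists are given under TMM scaling only. Of the subunits outside the name rule, Gadd45gip1 and Dap3 were lower at -0.74 and -0.47, and Ptcd3 higher at 0.22, which ERCC scaling did not call.

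**Figure D4:**
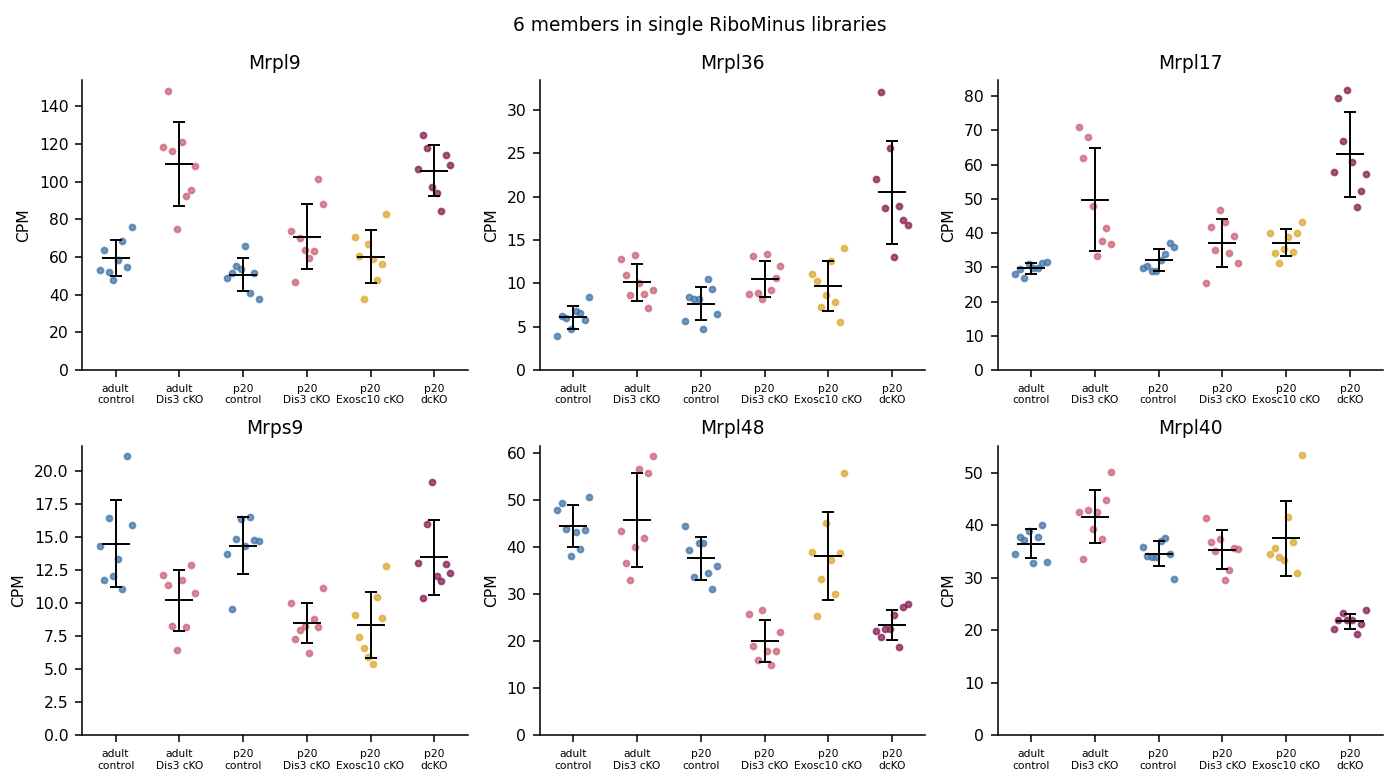
TMM-scaled CPM (y axis) of Mrpl9, Mrpl36, Mrpl17, Mrps9, Mrpl48 and Mrpl40 in each RiboMinus library (points), by group (x axis), with bars for mean ± SD. Mrpl9, Mrpl36 and Mrpl17 lie higher in adult Dis3 cKO and p20 dcKO, Mrpl48 lies lower in p20 Dis3 cKO and dcKO, and Mrpl40 lies lower in dcKO alone; the adult rise of Mrpl9, Mrpl17 and Mrpl36 was not called under ERCC scaling.

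Adult GV and p20 control oocytes differed in few members. In RiboMinus controls 6 of 77 tested members were higher in adult GV than in p20 oocytes and none lower, with a median of 0.13, beside 8.69% higher and 10.4% lower over 17267 genes. The 6 were Mrpl14 (0.65), Mrpl22, Mrps14, Mrpl21, Mrps2 and Mrps33, all the others between 0.41 and 0.47. Mrpl14, a conserved large-subunit protein at the interface of the subunits, had lowest, median and highest values of 5.04, 7.09 and 10.02 CPM at p20 and 8.02, 11.01 and 16.99 CPM in adults. No member separated all libraries of the groups, beside 2.86% of all genes above and 2.53% below. edgeR gave 20 members and 31.6% of all genes at an unadjusted p under 0.05, and DESeq2 called 6 higher and 1 lower (9.04% and 12.3% of all genes). Fitted on those groups alone, 14 higher and 2 lower (15.8% and 17.7% of all genes) were called, without the filter on low counts 1 higher and 0 lower (3.67% and 4.73% of all genes), and with counts summed per title tag none, beside 0.434% and 0.605% of all genes. ERCC scaling called all 77 lower, beside 85.7% of all genes, with medians of -1.56 for members and -1.69 for all genes.

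The Dis3 difference in adults minus that at p20 was called for 1 member, Mrpl48, at 0.94 (SE 0.19, adjusted p 0.000581), which was 0.04 in adults (adjusted p 0.825) and -0.91 at p20. The median over 77 members was 0.13, beside 5.34% of genes higher and 3.98% lower. No member was lower, with 12 members and 22.7% of all genes at an unadjusted p under 0.05 in edgeR. DESeq2 called 4 higher and 0 lower (7.13% and 4.28% of all genes). ERCC scaling (all-gene median -0.19) called 0 higher and 0 lower (1.88% and 1.49% of all genes), and sums per title tag 0 higher and 0 lower (0.188% and 0.118% of all genes).

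Across the 7 comparisons of a knockout with its control, 18 of 78 members (23.1%) were called in none, against 22.5% of the 18519 genes tested in any of them. At least 4 comparisons called 6 members (7.69%) higher, against 7.39% of genes, and at least 3 called 2 members (2.56%) lower, against 10.5%, so that the count of recurrently higher members was near that of all genes. Mrpl9 was called higher in 6, as were 1.31% of genes in at least 6, and positive in all 7, Mrpl36 and Mrpl57 were called in 5 and positive in 7, and Mrpl17 and Mrpl41 were called in 4 and positive in 7. Mrpl27, named after its values were seen, was called higher in 4, but overlaps Eme1 and has a named pseudogene. Mrps9 was called lower in 4 and Mrpl45 in 3, with Mrpl45 negative in all 7. At least 5 comparisons called 3.85% of members and 3.61% of genes higher. At least 4 called 1.28% of members and 5.28% of genes lower. Under ERCC scaling Mrpl9 was called higher in 4 of the 7, the only member to reach 4 beside 3.66% of genes. Mrpl17, Mrpl27, Mrpl36, Mrpl41 and Mrpl57 were called higher in 2 each, while Mrps9 was called lower in 5 and Mrpl45 in 2. That scaling called none of these members higher in adult or p20 Dis3 cKO. It called 2.56% of members and 4.76% of genes lower in at least 4. Shares of all genes called in at least 2 comparisons, or with the same sign in all 7, are not given here. These comparisons include the p20 ones that share controls, so the counts are not independent. Mrpl12 was called in none under TMM scaling and in 1 under ERCC scaling, at TMM-scaled differences of -0.06, 0.08, 0.22, 0.01, -0.08, 0.17 and 0.01 in poly(A) GV, GV3h and MII, RiboMinus adult, and p20 Dis3 cKO, Exosc10 cKO and dcKO. Of the searched sequences, the NRF1 core was in the promoters of Mrpl9 and Mrpl17, the YY1 core in that of Mrpl36, the ETS core in that of Mrpl27 and the GC box in those of Mrpl17, Mrpl57 and Mrps9. The promoters of Mrpl41 and Mrpl45 held none of them.

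**Figure D5:**
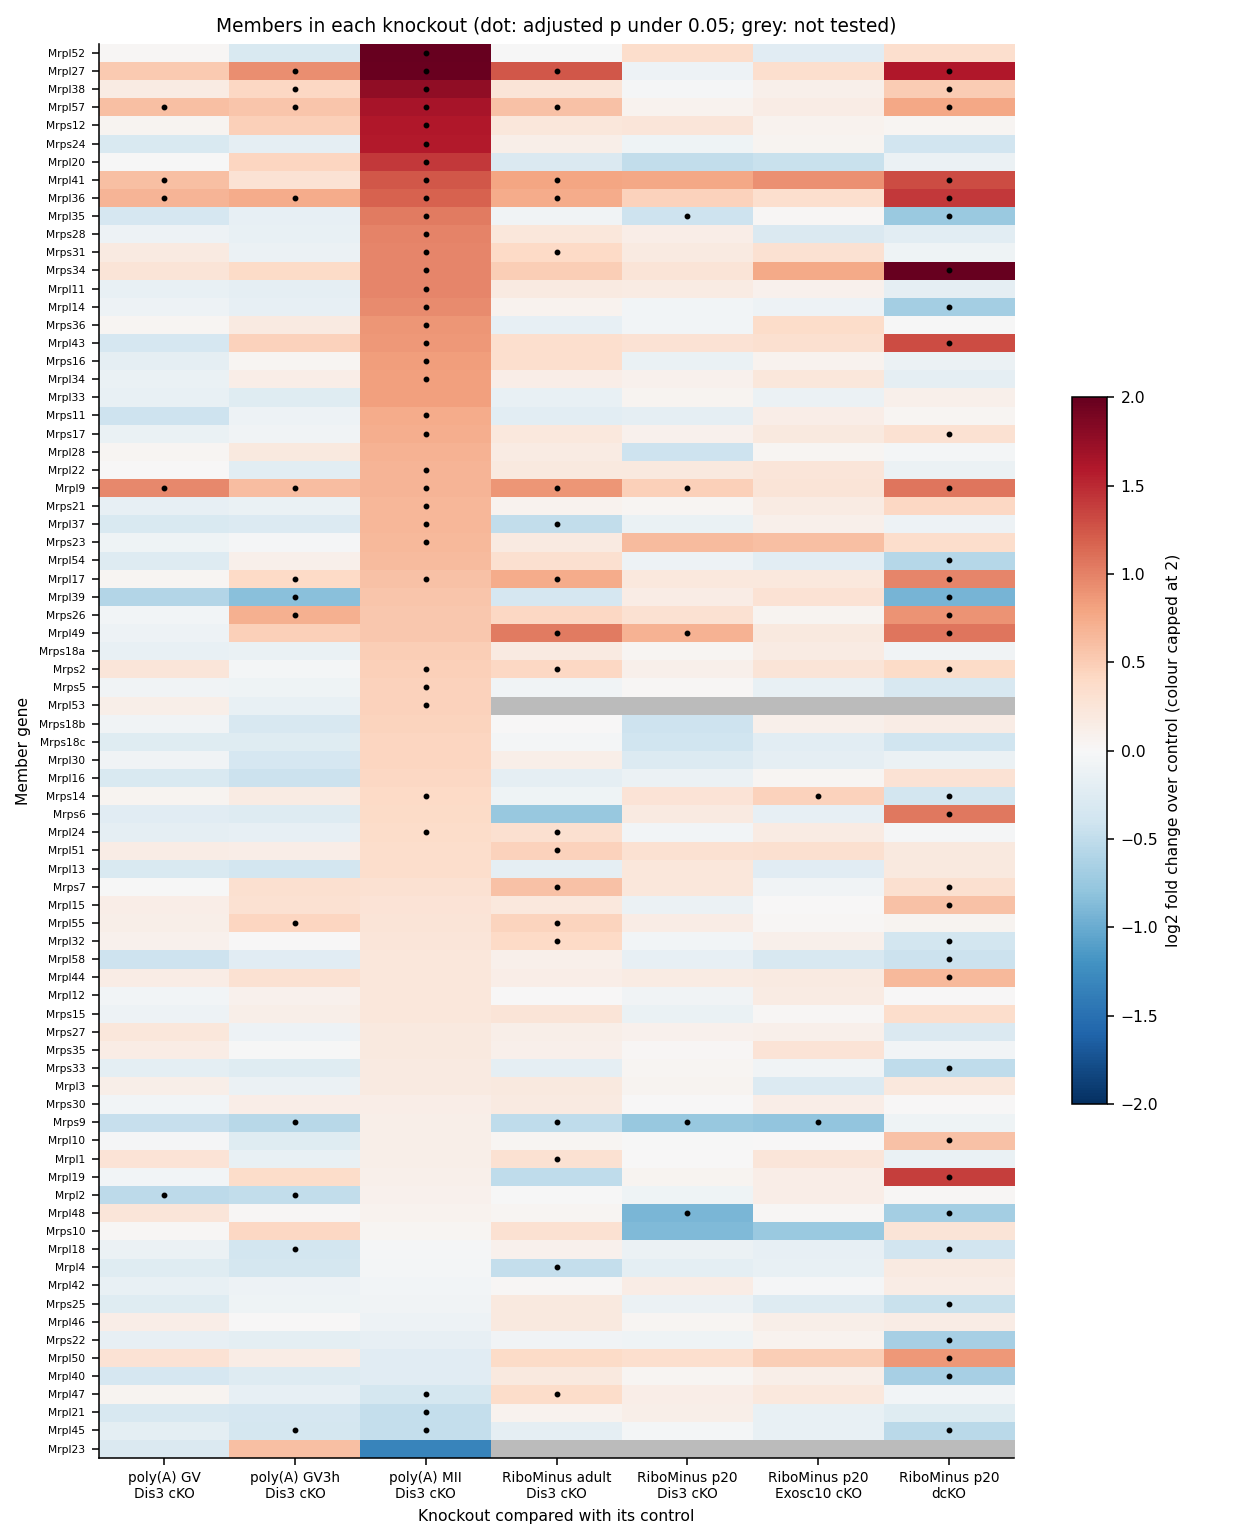
Log2 difference from control under TMM scaling (colour, capped at 2) of each member (rows, ordered by the poly(A) MII value) in 7 knockout comparisons (columns); dots mark adjusted p under 0.05 and grey marks genes not tested. Red dominates the MII column with 32 higher and 3 lower, Mrpl9 carries 6 dots, and dcKO shows 20 higher and 14 lower; under ERCC scaling adult Dis3 cKO has none higher and 28 lower.

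Pol II CUT&Tag gave a separate readout at the start sites. A member counted as having a peak where a peak of the list came within 500 bases of its start. Of 69 members with a start site, 1, 4 and 3 (1.45%, 5.80% and 4.35%) had a peak in the adult control lists, 13, 6 and 8 (18.8%, 8.70% and 11.6%) in adult Dis3 cKO and 7, 10 and 7 (10.1%, 14.5% and 10.1%) in p20 controls. All libraries of the latter groups thus lay above all adult controls, which was not so with equal numbers of peaks. The mean difference was 9.18 percentage points for adult Dis3 cKO over control and 7.73 for p20 over adult control, and a 2-sided exact permutation test of 3 against 3 libraries gave p = 0.1 for each, the smallest it allows. Over all 27025 genes the shares were 2.12% to 3.97% in adult controls, 3.29% to 10.0% in Dis3 cKO and 6.89% to 8.08% at p20. The lists differed in length, from 19697 to 122606 peaks, and 1.21% to 2.19%, 1.87% to 7.13% and 4.35% to 4.70% of the genome lay within 500 bases of a peak in those groups. With the 19697 peaks of highest score in each list, the shares were 1.45%, 4.35% and 1.45% in adult controls, 4.35%, 7.25% and 5.80% in Dis3 cKO and 4.35% in each p20 list, beside 2.10% to 2.65%, 2.48% to 2.62% and 2.89% to 3.06% of all genes. The differences then were 3.38 points (exact p = 0.2) and 1.93 points (exact p = 0.4), and the lowest list of each group tied with the highest control. Of 69 members, 37 (53.6%) had a peak in no list, Mrpl9 and Mrpl3 among them, against 73.1% of all genes, and 0 had one in all 9 lists, against 0.122%. Mrpl12 had a peak in 0 adult control, 2 Dis3 cKO and 3 p20 lists, Mrpl49 in 1, 1 and 3, and Mrpl53 in 0, 3 and 0. At the shared start of Mrps11 and Mrpl46, 1 Dis3 cKO list held a peak.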

How the data were processed

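Poly(A) and RiboMinus RNA of single mouse oocytes and Pol II CUT&Tag of bulk oocytes were analysed. The deposited gene tables hold raw read counts per gene from the authors, 1 column of values per library. The deposited peak lists hold the authors' signal per peak, which was not used beyond the peak positions and, in an alternative with equal numbers of peaks per list, the rank within a list. The submitters' processing notes name cutadapt 2.5, FastQC 0.11.8, STAR 2.7.2a, SAMtools 1.9, HTSeq 0.9.1, R 3.5.1, DESeq2 1.24.0, SEACR and build mm10. The strand setting of the counting is not given in the sources used here. Per the labels' protocols, CUT&Tag reads were sampled to a common depth and kept their duplicates, with 1 list per library.

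Every row of the gene tables named a gene, with 55573 in poly(A) and 55487 in RiboMinus files, and ERCC counts, held in separate deposited tables, stayed out of library sizes. Genes were filtered with filterByExpr and tested with edgeR 4.0.16 (R 4.3.3, limma 3.58.1) after TMM scaling. The 71 poly(A) libraries were fitted together, as were the 16 adult and the 32 p20 RiboMinus libraries, and all 48 RiboMinus libraries for comparisons of adult with p20. P-values were adjusted by Benjamini-Hochberg over all genes of a fit and called under 0.05. Alternatives were scaling to ERCC counts, DESeq2 size factors, DESeq2 1.42.0, no filter, only the groups compared, a replicate block, counts summed per title tag and left-out libraries. Other work used Python 3.11.15, pandas 2.3.3, numpy 2.4.6 and scipy 1.17.1. The fits were tested on simulated data, and the outcome is not reported here.

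Members, gene lists and tests were chosen with earlier results of these data known. Named in each knockout comparison and in control MII against GV were up to 4 called members with the largest increase and 4 with the largest decrease among those at 10 CPM or more in a group, and in every comparison Mrpl3, Mrpl12, Mrpl44, Mrpl58, Mrps12, Mrps18a, Mrps18b and Mrps18c. Any other member was named after its values were seen, as were the printed promoters, the check for opposite starts and the removal of MII libraries 7, 11 and 15 together. The series' design gives 16 GV Dis3 cKO libraries for poly(A), of which 15 were analysed here. Of 17 translation factors listed, Mtrfr was not matched by symbol.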

Additional observations from a re-analysis of the deposited data

Results flagged for a closer look

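In 83 tests, values such as a gene's CPM or the members' share were examined within a group of 4 to 10 libraries. Of these tests, 8 found a library far from the others, where chance gives about 1 in 20. By gene, these were Mrpl36 at 22.7 CPM in GV3h control 1, Mrpl37 at 31.5 CPM in adult Dis3 cKO AM1757_1, Mrpl52 at 1.07 CPM in MII control 6 and Mrpl9 at 138 CPM in GV control 5, each the highest of its group. Mrpl40 at 29.8 CPM in p20 control 2_4 and Mrps9 at 9.58 CPM in p20 control 1_2 were the lowest of theirs. The share of gene counts in members was highest by a wide gap in p20 Dis3 cKO 1_4, at 0.177%, and in p20 Exosc10 cKO 2_4, at 0.231%.

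The Dis3 effect differed between MII and GV in 22 members by edgeR's test of the difference, among them Mrpl52 by 2.09, Mrpl38 by 1.61 and Mrps12 by 1.54 on the log2 scale. Without MII Dis3 cKO libraries 7, 11 and 15 together, Mrps12 was not called. Between adult and p20 oocytes, 1 member, Mrpl48, differed in its response to loss of Dis3, by 0.94, a call not made under ERCC scaling or with sums per title tag.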

How the results depend on the processing

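Among recomputed counts of called members, 86 stayed within 1.5 times the value reported and 27 did not. Scaling to ERCC counts gave 12 for GV Dis3 cKO, 5 for GV3h, 55 for MII, 0 for control GV3h against GV, 61 for the Dis3 effect in MII minus GV, 1 for Exosc10 cKO, 19 for dcKO against Exosc10 cKO, 77 for control adult against p20 and 0 for the Dis3 effect in adult minus p20. It reversed the members' median to -0.43 in adult Dis3 cKO, -0.28 in p20 Dis3 cKO, -1.56 in control adult against p20 and -0.11 in the effect of adult minus p20. It also reversed Mrpl47 in MII Dis3 cKO to 0.0117, Mrpl3 and Mrpl44 in control MII against GV to -0.59 and -1.32, and Mrpl44 in Dis3 cKO MII against GV to -0.59. A fit on the groups compared alone gave 12 for GV, 34 for GV3h, 22 for MII, 24 for control GV3h against GV and 16 for control adult against p20. Sums per title tag gave 0 for adult Dis3 cKO, 1 for p20 Dis3 cKO, 0 for Exosc10 cKO, 22 for dcKO, 14 and 17 for dcKO against Dis3 cKO and Exosc10 cKO, and 0 for both comparisons of adult with p20. Without the filter, 1 was called for control GV3h against GV, 1 for Exosc10 cKO and 1 for control adult against p20. DESeq2 and its size factors in edgeR each gave 4 for the effect of adult minus p20. Without MII libraries 7, 11 and 15 together, the members' median was 0.26 in MII Dis3 cKO, -1.90 in Dis3 cKO MII against GV and 0.28 in the effect of MII minus GV. The cause of these shifts was not tested.

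Leaving out single libraries that stood apart gave 4 for GV, 31 to 35 for MII, 2 for control GV3h against GV, 65 for control MII against GV, 70 to 72 for Dis3 cKO MII against GV, 18 to 22 for the MII minus GV effect, 4 for p20 Dis3 cKO, 2 for Exosc10 cKO, and 30 and 31 for dcKO against Dis3 cKO and Exosc10 cKO. The Pol II differences ran from 6.28 to 11.4 points for Dis3 cKO and 6.28 to 8.70 for p20, and with equal numbers of peaks per list they were 3.38 and 1.93. Whether replicate numbers pair the samples is not described in the labels, and the main fits used no pairing. Same-numbered libraries had a median correlation of 0.0087, -0.0228 and 0.0135 in the poly(A), adult and p20 fits. Differently numbered libraries had -0.0012, 0.0059 and -0.0016. With a replicate block, the counts were 4 for GV, 16 for GV3h, 31 for MII, 4 for control GV3h against GV, 66 and 72 for MII against GV in control and Dis3 cKO, 17 for the effect of MII minus GV, 19 for adult, 5 for p20 Dis3 cKO, 2 for Exosc10 cKO, 33 for dcKO against control, and 31 and 34 for dcKO against those single knockouts.

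Of single members, 472 recomputed values kept their direction and call, 46 lost the call and 4 reversed. Low counts limit Mrpl23 and Mrpl53 in RiboMinus data and the most reduced members in MII eggs. The labels do not describe the title tags, of which each RiboMinus group of 8 libraries has 2. How reads of overlapping genes were split was not tested.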
